A study of Mus musculus with 4 samples.

Results

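The genes described here are the 10 contractile genes of the mammary myoepithelium, Acta2, Actg2, Myh11, Cnn1, Tagln, Myl9, Mylk, Oxtr, Tpm2 and Smtn. They were chosen by name for their function, with earlier results of these data known. All 10 were found among the 23746 gene rows measured in each tumor. Myoepithelial cells form the outer, basal layer of mammary ducts and alveoli and squeeze milk outward when oxytocin reaches them. They do so with the machinery of smooth muscle: oxytocin binds its receptor, calcium rises, calmodulin turns on myosin light chain kinase, and phosphorylated myosin pulls on filaments of smooth muscle actin that carry tropomyosin, calponin, transgelin and smoothelin. Vascular smooth muscle, pericytes and myofibroblasts use many of the same genes, which serum response factor switches on through a DNA element called the CArG box.

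RNA came from 4 primary mammary tumors of female mice, 2 of the genotype WapCre;Rank;Brca1;p53 (triple-mutant, tumors 26043 and 26044) and 2 of the genotype WapCre;Brca1;p53 (double-mutant, tumors 26048 and 26050). All 4 carry the WapCre transgene and the Brca1 and p53 alleles that it deletes, and only the triple-mutant tumors also carry the Rank allele (Tnfrsf11a, the receptor for RANKL) that it deletes. According to the study, this Cre line is active in both luminal and basal mammary epithelial cells without pregnancy. Other cells of the tumor keep their alleles. The labels give neither the age of the females nor the grade of each sequenced tumor. The study reports high-grade tumors only in double-mutant mice, beside intermediate-grade tumors in both genotypes. A difference in grade therefore cannot be told apart from one of genotype here. In the high-grade tumors the study found reduced staining for CK5, the protein of Krt5, and for p63. The labels also do not say whether the 2 tumors of a genotype came from separate females, so p-values measure only the spread between these tumors. Each value below is an FPKM, that is fragments scaled by transcript length and by the number of mapped fragments, a level that is comparable between genes. Differences are on the log2(FPKM + 1) scale, triple-mutant minus double-mutant, and this scale understates the change of low genes.

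The number of reads behind each FPKM is unknown. The Cufflinks interval, which covers the measurement of a tumor and not the spread between tumors, had a median half-width of 8.35% to 8.78% of its midpoint over genes with at least 1 FPKM. For some genes named below the FPKM lay outside its own interval, so their levels and family shares are less certain. Among them were Acta2, Actb, Actg1, Tagln2, Cald1, Itga8, Srf, Gna11 and Ppp1r14a in all 4 tumors, and Actg2 and Myl9 in 3. Tnfrsf11a was at 2.07 and 0.96 FPKM in triple-mutant tumors 26043 and 26044 and at 10.6 and 11.9 FPKM in double-mutant tumors 26048 and 26050. Epcam and Krt8, which mark epithelium, were found in every tumor, from 25.7 to 516 FPKM and from 98.3 to 708 FPKM. Tumor 26044 was the lowest in both and stood apart from the other 3, so the main differences are also given without it.

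The members showed 3 patterns. For Oxtr and Tpm2, the lower triple-mutant tumor was at 9.58 and 3.35 times the higher double-mutant tumor. Acta2, Tagln, Myl9 and Cnn1 were at 11.4 to 15.3 times the level in tumor 26044 that they had in tumor 26043. In tumor 26043 Acta2, Myl9 and Cnn1 were at 1.09, 1.71 and 2.18 times the level of tumor 26048. Tumor 26050 was lower still for these genes. Tagln was lower in tumor 26043 than in both double-mutant tumors. Actg2, Mylk and Smtn overlapped between the genotypes, and Myh11 was near the lower limit of the tables. Because bulk RNA was measured, fewer cells of a type and less RNA per cell cannot be told apart in any of these values.

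**Figure D1:**
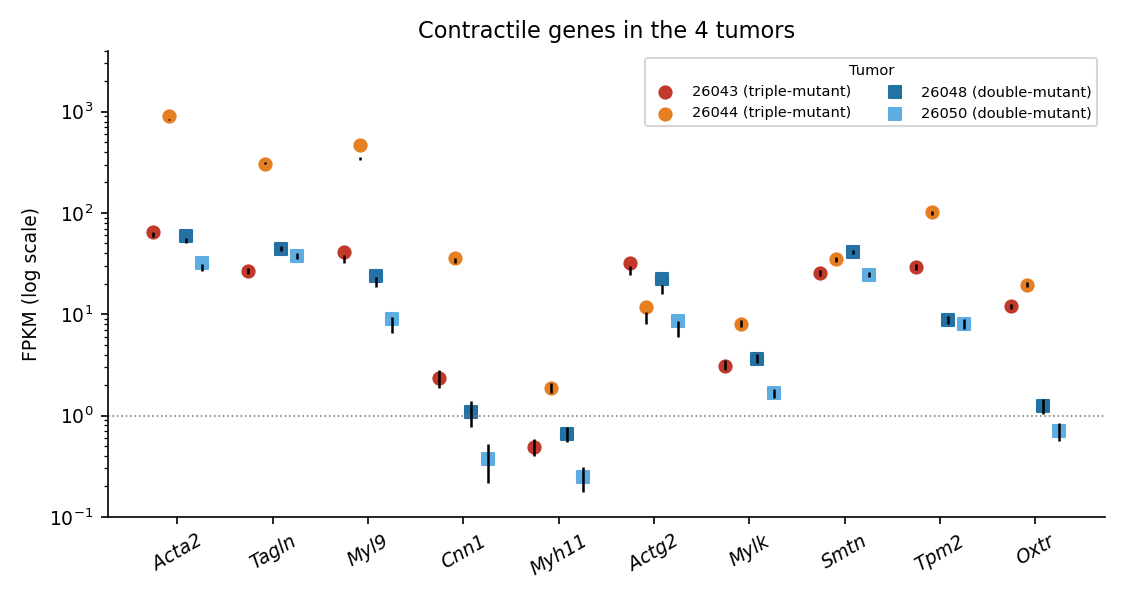
FPKM of the 10 contractile genes (horizontal axis) in each of the 4 tumors on a log scale (vertical axis), circles for triple-mutant and squares for double-mutant tumors, with the Cufflinks interval as a black line and 1 FPKM as a dotted line. Tumor 26044 is the highest in 8 of the 10 genes, and only Oxtr and Tpm2 have both triple-mutant tumors at more than 3 times the level of both double-mutant tumors.

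The CArG box is shown first because it is the element that these genes are best known to share. Sequences of the 250 bases before the transcription start, from RefSeq on GRCm38.p6, matched 7 of the 10 members. A table entry for Actg2, Myh11 and Tagln was not used here. The strict CArG box, which reads the same on both strands, was in 1 of the 7 windows, that of Myl9, and in 1.47% of 32851 promoters of the same length. With at most 1 G or C allowed in its A/T core, a form that includes the strict box, it was in the windows of Acta2 and Myl9, with 2 matches in each, and in 8.59% of all promoters. The matches in Acta2 start 84 and 34 bases before the transcription start and those in Myl9 161 and 99 bases before it. The stretches below are from these windows, written 5′ to 3′ with the matches in capitals. Both Acta2 stretches lie on the minus strand, in exons that GENCODE gives to longer Acta2 transcripts, at chr19:34255438-34255467 and chr19:34255388-34255417. The Myl9 stretch lies on the plus strand outside annotated exons, at chr2:156775284-156775383.
Acta2, first match: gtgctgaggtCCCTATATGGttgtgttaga
Acta2, second match: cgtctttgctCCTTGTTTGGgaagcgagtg
Myl9: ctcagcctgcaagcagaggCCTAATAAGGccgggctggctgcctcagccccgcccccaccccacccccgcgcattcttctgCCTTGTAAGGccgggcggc

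The motif CATTCC, which TEAD factors bind, was looked for on both strands. It was in the windows of Acta2, Mylk and Smtn, and in 12.6% of all promoters. The TATA motif TATAAA, also on both strands, was in 0 of the 7 windows and in 12.4% of all promoters. No CArG match was found in the windows of Cnn1, Oxtr, Tpm2, Mylk and Smtn. Acta2 and Myl9, the genes with a CArG match, fell in the same pattern as Cnn1, whose window had no match, and Tagln, whose window was not used. Whether a match bears on the levels was not tested.

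To compare the genotypes, log2(FPKM + 1) was fitted with limma over 12752 genes, those that reached 1 FPKM in 2 tumors or more. Of the 10 members 9 entered this test. Myh11 did not, since it reached 1 FPKM in tumor 26044 alone. Of all genes tested 0 (0%) had an adjusted p under 0.05 (limma with Benjamini-Hochberg adjustment, 2 tumors against 2), and so had 0 of the 9 members. At an unadjusted p under 0.05, 1252 of all genes and 2 of the 9 members were found, Oxtr and Tpm2. Both were higher in triple-mutant tumors, as were 5.91% of all genes tested at that level. The triple-mutant pair lay wholly above the double-mutant pair in 5 of the 9 members, namely Acta2, Cnn1, Myl9, Oxtr and Tpm2, against 21.3% of all genes tested. The opposite order was found in 0 of the 9 members and in 22.9% of all genes tested. The median log2 difference of the 9 members was 2.45, against -0.02 over all genes tested. Without tumor 26044 the median of the members was 0.99 and without tumor 26043 it was 3.39, so its size rested on which triple-mutant tumor was used. For a single gene, an exact permutation test of 2 tumors against 2 cannot go below p = 0.333.

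Oxtr encodes the oxytocin receptor, the signal input of the contractile cell (chromosome 6, 112473684 to 112489808, minus strand). Its level was 12.0 and 19.6 FPKM in triple-mutant tumors 26043 and 26044, and 1.25 and 0.70 FPKM in double-mutant tumors 26048 and 26050. The groups did not overlap, and the lowest triple-mutant value was 9.58 times the highest double-mutant value. The log2 difference was 3.06 (standard error 0.39, adjusted p = 0.18 from limma), the 60th smallest p of all genes tested and the smallest of the members. The difference was 2.73 without tumor 26044 and 3.39 without tumor 26043. Within the triple-mutant pair it differed by 1.63 times and within the double-mutant pair by 1.78 times, both less than the gap between the genotypes.

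Tpm2 encodes beta-tropomyosin, which lies along actin filaments in smooth and skeletal muscle and in myoepithelium (chromosome 4, 43514712 to 43523388, minus strand). It had 29.4 and 102 FPKM in triple-mutant and 8.77 and 8.05 FPKM in double-mutant tumors. The double-mutant tumors were nearly equal, and both triple-mutant tumors were above them, the lower by 3.35 times. The log2 difference was 2.57 (standard error 0.64, adjusted p = 0.41 from limma). It was 1.69 without tumor 26044 and 3.45 without tumor 26043. Skeletal muscle also expresses Tpm2. The summed level of 10 skeletal muscle markers was 13.1 and 4.70 FPKM in triple-mutant and 12.7 and 58.0 FPKM in double-mutant tumors, highest in tumor 26050. Their part in the level of Tpm2 was not tested.

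Acta2, the smooth muscle alpha-actin that serves as the standard stain for myoepithelium, was the most abundant member in 3 of the 4 tumors (chromosome 19, 34241091 to 34255336, minus strand). Its FPKM was 64.8 and 898 in triple-mutant tumors 26043 and 26044, and 59.7 and 31.8 in double-mutant tumors 26048 and 26050. Tumor 26044 stood alone at 13.9 times the level of tumor 26043, while tumor 26043 exceeded tumor 26048 by a factor of only 1.09. The genotype difference was 2.45 log2 units with a standard error of 1.31 (adjusted p = 0.59 from limma). Without tumor 26044 it was 0.56. The FPKM of Acta2 lay outside its own Cufflinks interval in all 4 tumors, and with the midpoints of the intervals tumor 26044 was at 13.6 times tumor 26043.

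Myl9 encodes the regulatory light chain of smooth muscle myosin, whose phosphorylation starts contraction (chromosome 2, 156775464 to 156781657, plus strand). It was measured at 40.8 and 464 FPKM in triple-mutant and at 23.9 and 8.95 FPKM in double-mutant tumors. The groups did not overlap, but tumor 26044 was 11.4 times tumor 26043, whereas tumor 26043 was 1.71 times the nearest double-mutant tumor. Its log2 difference was 3.15 (standard error 1.26, adjusted p = 0.52 from limma), and 1.41 without tumor 26044. Myl9 also lay outside its interval in 3 tumors, and by interval midpoints the ratio within the triple-mutant pair was 9.82.

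Cnn1 encodes calponin, an actin-binding protein that restrains myosin and marks differentiated smooth muscle and myoepithelial cells (chromosome 9, 22099253 to 22109221, plus strand). Tumors 26043 and 26044 had 2.36 and 36.2 FPKM, and tumors 26048 and 26050 had 1.08 and 0.37 FPKM. Only tumor 26044 held an appreciable level, 15.3 times that of tumor 26043, although tumor 26043 was still above both double-mutant tumors. The log2 difference was 2.72 (standard error 1.203, adjusted p = 0.54 from limma), and 0.99 without tumor 26044.

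Tagln encodes transgelin (SM22), an actin-bundling protein of smooth muscle (chromosome 9, 45929628 to 45936058, minus strand). Its levels of 26.7 and 307 FPKM in triple-mutant and 44.3 and 37.6 FPKM in double-mutant tumors overlapped, with tumor 26043 the lowest of the 4 and tumor 26044 the highest. The log2 difference was 1.14 (standard error 1.18, adjusted p = 0.76 from limma), and it changed sign without tumor 26044, to -0.60. Exons of Tagln overlap exons of Pcsk7 and Gm48529 on the opposite strand. The libraries mark strand, but whether the FPKM estimate used it is not given in the sources used here.

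Among the remaining members, Actg2, the gamma-actin of smooth muscle (chromosome 6, 83512909 to 83536251, minus strand), ran against the other genes within the triple-mutant pair. It had 31.9 FPKM in tumor 26043 and 11.9 FPKM in tumor 26044, and 22.2 and 8.62 FPKM in double-mutant tumors 26048 and 26050. The difference between genotypes was 0.47 log2 units (standard error 0.67, adjusted p = 0.83 from limma). Thus the 2 smooth muscle actin genes were ordered oppositely in the triple-mutant pair, Acta2 higher by 3.77 log2 units and Actg2 lower by 1.35 in tumor 26044. Of all genes tested, 0.40% had a larger difference of tumor 26044 over tumor 26043 than Acta2, and 91.5% had a larger one than Actg2. In terms of the transcripts, 7 of the 2146 distinct windows of 50 bases in Acta2 (0.33%) and 0 of 1592 in Actg2 recur in other genes, so reads of this length can be told apart between these actins. For the other members this share was between 0% and 0.34%.

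Mylk, the kinase that phosphorylates Myl9 in response to calcium and calmodulin (chromosome 16, 34784950 to 35002434, plus strand), was low in all tumors. It had 3.06 and 8.01 FPKM in triple-mutant and 3.65 and 1.67 FPKM in double-mutant tumors, with tumor 26048 between the triple-mutant tumors, and a log2 difference of 0.78 (standard error 0.55, adjusted p = 0.66 from limma). This difference was 0.21 without tumor 26044, 1.35 without tumor 26043, 1.18 without tumor 26048 and 0.38 without tumor 26050. Smtn, which encodes the actin-binding protein smoothelin (chromosome 11, 3517522 to 3539292, minus strand), varied least. Its FPKM was 25.6 and 35.0 in triple-mutant and 40.8 and 24.5 in double-mutant tumors, each genotype spanning much of the range of the other, and the log2 difference was -0.08 (standard error 0.38, adjusted p = 0.95 from limma). Exons of Mylk and Smtn also overlap genes on the opposite strand. Myh11, the heavy chain of smooth muscle myosin and a defining gene of mature contractile cells (chromosome 16, 14194527 to 14291408, minus strand), was at 0.492, 1.87, 0.655 and 0.244 FPKM in tumors 26043, 26044, 26048 and 26050. It was thus at most 1.87 FPKM in the same tumor that held 898 FPKM of Acta2.

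**Figure D2:**
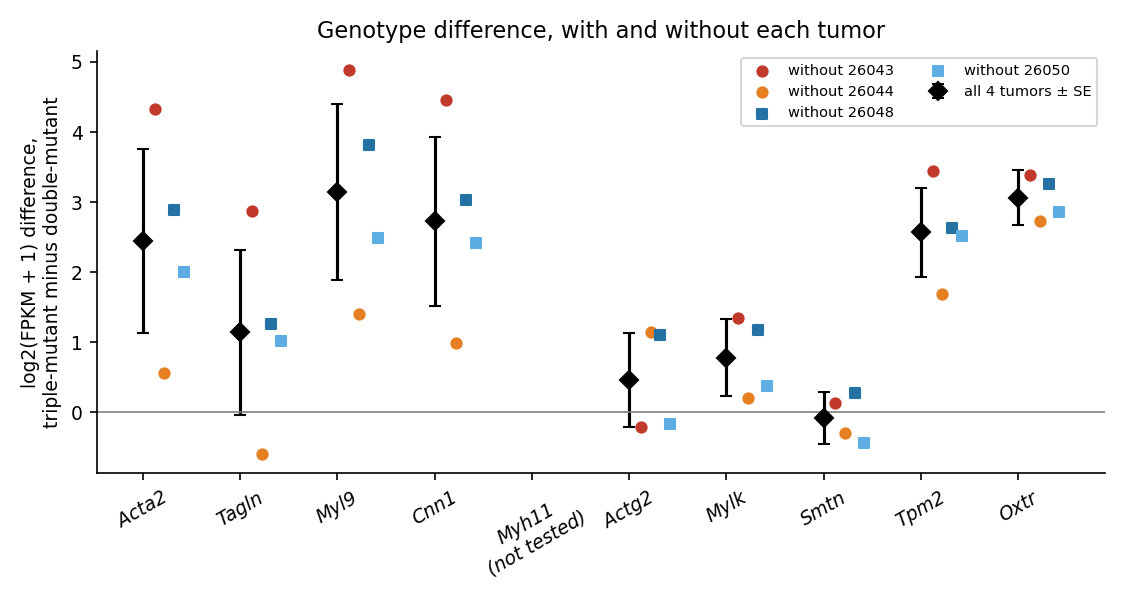
log2(FPKM + 1) difference, triple-mutant minus double-mutant (vertical axis), of each contractile gene from all 4 tumors (black diamond with the standard error from limma) and with 1 tumor left out (colored points). Leaving out tumor 26044 moves Acta2 from 2.45 to 0.56 and Tagln from 1.14 to -0.60, while Oxtr stays between 2.73 and 3.39.

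Across the members, tumor 26044 was the highest in 8 of 10 and tumor 26050 the lowest in 9 of 10. Over all genes tested these tumors held those places in 24.2% and 28.3% of genes. The exceptions were Actg2, highest in tumor 26043, Smtn, highest in tumor 26048, and Tagln, lowest in tumor 26043. The Cufflinks intervals did not overlap in 8 to 10 of the 10 members for every pair of tumors, within a genotype as well as between genotypes. With a limit of 2 log2 units, chosen after the values were seen, tumor 26044 exceeded tumor 26043 in 4 of the 9 tested members, Acta2, Tagln, Myl9 and Cnn1, and in 2.39% of all genes tested. It was lower by as much in 0 of the 9 members and in 3.92% of all genes tested. Within the double-mutant pair all 10 members were higher in tumor 26048 than in tumor 26050, by 1.09 times for Tpm2 to 2.91 times for Cnn1, as were 54.1% of all genes tested. The median log2 difference of tumor 26050 minus tumor 26048 was -0.71 for the members and -0.05 over all genes tested. In the marker lists described further on it was -0.74 for pericytes and vascular smooth muscle, -0.73 for endothelium and -0.69 for fibroblasts. It was -0.27 for basal, -0.14 for luminal, -0.03 for leukocyte and 1.29 for skeletal muscle markers, and -5.35 for the 1 adipocyte marker tested. The summed level of the 10 members was 237 and 1883 FPKM in triple-mutant tumors 26043 and 26044 and 206 and 123 FPKM in double-mutant tumors 26048 and 26050.

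Each contractile protein has relatives that serve the cytoskeleton of other cells, and the balance within these families also set tumor 26044 apart. Tagln made up 66.2% of the summed FPKM of the 3 transgelin genes in tumor 26044, against 3.90% in tumor 26043 and 9.42% and 8.04% in tumors 26048 and 26050. In the other 3 tumors the related Tagln2 held over 90% of that sum. Myl9 took 57.0% of the regulatory light chains in tumor 26044 and 8.66%, 5.25% and 2.88% in tumors 26043, 26048 and 26050, the rest being the widely expressed Myl12a and Myl12b. Acta2 was 15.6% of the 6 actins in tumor 26044 and 1.32%, 0.93% and 0.44% in the others. The cytoplasmic actins Actb and Actg1 dominated in every tumor, and in tumor 26044 they made up 52.3% and 31.9%. Tpm2 was 5.70% and 16.5% of the tropomyosins in triple-mutant and 1.01% and 1.41% in double-mutant tumors. The shares of Acta2, Myl9, Cnn1 and Myh11 were also higher in both triple-mutant tumors, while those of Tagln and Actg2 overlapped between the genotypes. Cnn1 stayed at 4.33% or less of the calponins and Myh11 at 0.97% or less of the myosin heavy chains, with Cnn2, Cnn3 and Myh9 as the abundant relatives.

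**Figure D3:**
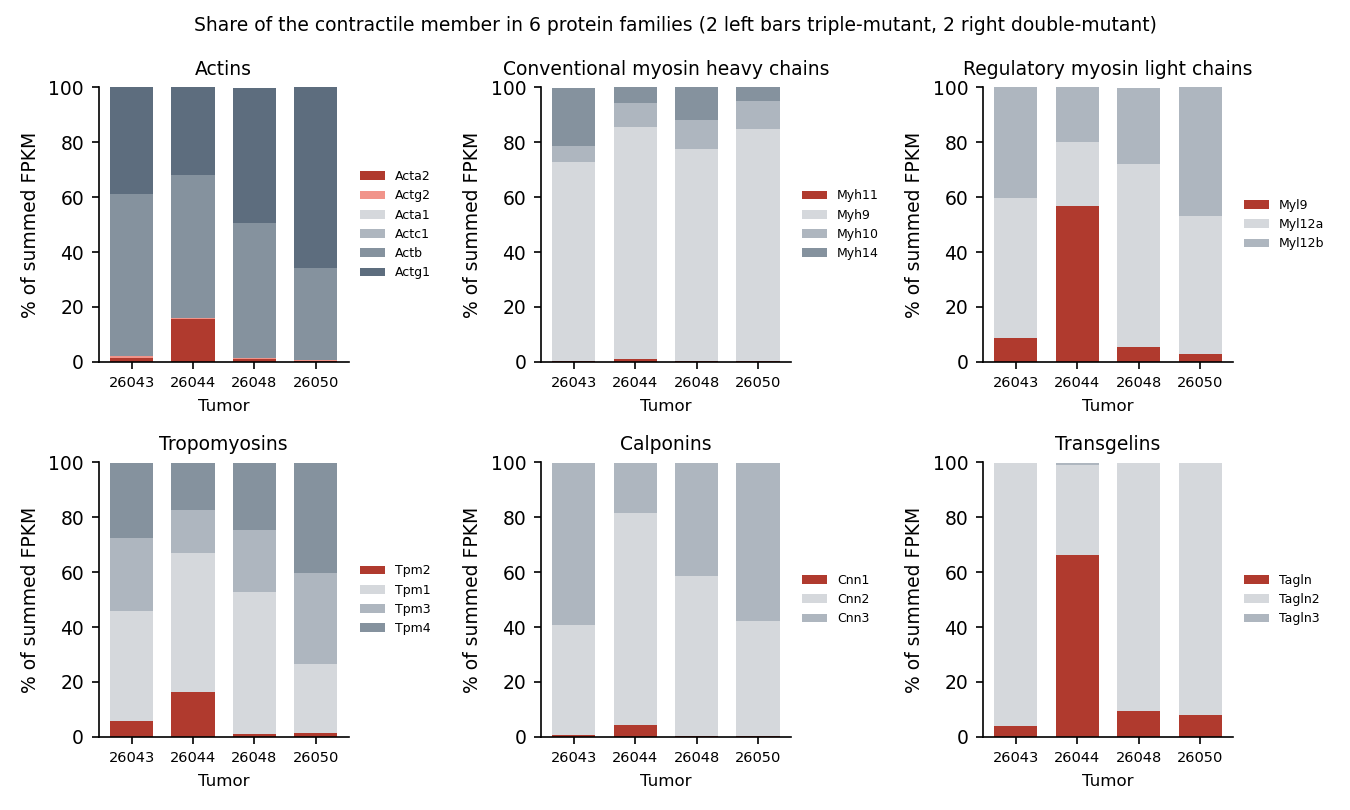
Share of each gene (percent, vertical axis) in the summed FPKM of its protein family in each tumor (horizontal axis, tumors 26043 and 26044 triple-mutant, 26048 and 26050 double-mutant), with contractile genes in red shades and their relatives in grey. Tagln and Myl9 make up 66.2% and 57.0% of their families in tumor 26044 and under 10% in the other tumors.

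Of 24 relatives, including the muscle kinases and the oxytocin gene, 15 were tested. Both triple-mutant tumors were higher in 3 of them and both double-mutant tumors in 3, against 21.3% and 22.9% of all genes tested. The median log2 difference was -0.01. The largest differences without overlap were those of the cytoplasmic gamma-actin Actg1 at -1.05 (1900 and 1837 FPKM against 3182 and 4707 FPKM), Cnn3 at 0.90 and Tpm4 at -0.84. Actg1 was thus lower in both triple-mutant tumors. Acta2 was higher in both, but in tumor 26043 only by a factor of 1.09 over tumor 26048. The oxytocin gene Oxt was at 1.76 FPKM or below in every tumor.

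Other structural genes of smooth muscle were mixed in direction. Of 17 such genes 13 were tested, with a median log2 difference of -0.01. The triple-mutant pair was wholly higher in 3 of them and wholly lower in 4, against 21.3% and 22.9% of all genes tested. The largest differences without overlap all pointed toward double-mutant tumors, namely Ldb3, a protein of the muscle Z-disc, at -2.36 (0.16 and 0.12 against 3.86 and 6.04 FPKM), the actin-binding caldesmon gene Cald1 at -1.50 (67.6 and 49.6 against 328 and 83.8 FPKM) and the integrin Itga8 at -1.33 (5.18 and 5.29 against 12.2 and 17.6 FPKM). Of the 13 genes 0 passed the adjusted threshold of limma, and 3 had an unadjusted p under 0.05, as had 1252 of the 12752 genes tested. Lmod1, which encodes the actin nucleator leiomodin, and Pdlim3 exceeded 2 log2 units within the triple-mutant pair, at 2.61 and 2.35, and overlapped between genotypes. Both were named after their values were seen. Lmod1 was highest in double-mutant tumor 26050, at 12.2 FPKM, against 0.82 FPKM in tumor 26048, a difference of 2.85 log2 units. It had 0.59 and 8.73 FPKM in triple-mutant tumors 26043 and 26044.

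Among 12 transcription factors and cofactors that act on contractile genes, 10 were tested, and 0 passed the adjusted threshold of limma or had an unadjusted p under 0.05. Serum response factor (Srf) had 26.5 and 39.3 FPKM in triple-mutant and 20.8 and 16.2 FPKM in double-mutant tumors, a log2 difference of 0.78 (standard error 0.34, adjusted p = 0.54 from limma). Tead1, which binds CATTCC elements, differed by 0.85 and was also higher in both triple-mutant tumors. Mkl2, a myocardin-related cofactor of Srf, was lower in both, by 0.69 log2 units (6.83 and 4.29 against 12.3 and 7.13 FPKM). Myocd, the cofactor that drives smooth muscle genes in vessels, was at 0.46, 0.01, 0.29 and 0.02 FPKM in tumors 26043, 26044, 26048 and 26050. It was therefore nearly absent from the tumor with the highest Acta2, Tagln, Myl9 and Cnn1. The median log2 difference of this list was 0.06.

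The signalling that links the oxytocin receptor and RhoA to Myl9 was listed as 27 genes, of which 26 were tested. Both triple-mutant tumors were higher in 7 and both double-mutant tumors in 6, against 21.3% and 22.9% of all genes tested. The median log2 difference was 0.07, and 0 genes passed the adjusted threshold of limma. Stim1, a calcium sensor of the endoplasmic reticulum, had 33.3 and 26.0 FPKM in triple-mutant and 9.56 and 5.91 FPKM in double-mutant tumors, a log2 difference of 1.83 (standard error 0.36, adjusted p = 0.32 from limma). Gna11, a G protein that couples to receptors such as Oxtr, had 55.5 and 52.5 against 31.2 and 21.4 FPKM, a log2 difference of 1.03. The only gene of the list that exceeded 2 log2 units within the triple-mutant pair was Ppp1r14a, an inhibitor of myosin phosphatase found in smooth muscle and described here after its values were seen. It had 4.76 FPKM in tumor 26043, 47.1 FPKM in tumor 26044, and 6.38 and 3.85 FPKM in tumors 26048 and 26050. These values lay outside their own Cufflinks intervals in all 4 tumors. By interval midpoints tumor 26044 was at 7.54 times tumor 26043 for Ppp1r14a.

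Markers of cell types also differed between the tumors, some lists in the direction of the members and others against it. Their part in the results was not tested. Of 9 markers of the basal epithelium, in which myoepithelial cells lie, 8 were tested, with a median log2 difference of 3.56. In 6 of the 8 the triple-mutant pair lay wholly above the double-mutant pair, against 21.3% of all genes tested. The basal keratins Krt5, Krt17 and Krt14 had log2 differences of 6.68, 5.72 and 5.04. Krt5 was at 596 and 114 FPKM in triple-mutant and 1.15 and 2.06 FPKM in double-mutant tumors, and Krt14 at 611 and 42.5 against 2.08 and 6.99 FPKM. Both were thus highest in tumor 26043, the opposite order to Acta2, Tagln, Myl9 and Cnn1 within the triple-mutant pair. The transcription factor gene Trp63 had 28.5 and 48.1 FPKM against 1.24 and 0.67 FPKM, and the cadherin gene Cdh3 had 26.9 and 46.9 against 4.62 and 3.76 FPKM. Trp63 and Cdh3, named after their values were seen, ranked the 4 tumors in the same order as Oxtr, Tpm2, Acta2, Myl9 and Cnn1 did. Of the 8 tested basal markers only 3 were higher in tumor 26044 than in tumor 26043, as were 4933 of the 12752 genes tested. In tumor 26044, 4 of the 8 were at least 2 log2 units lower, against 3.92% of all genes tested, and the median was -1.85. The summed level of the basal markers was 498 to 1969 FPKM in triple-mutant and 96.8 to 123 FPKM in double-mutant tumors.

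All 9 luminal epithelial markers were at least 2 log2 units lower in tumor 26044 than in tumor 26043, against 3.92% of all genes tested. Their median was -3.06, and their summed level was 534 FPKM in tumor 26044 against 2749 to 4332 FPKM in the other 3. Between genotypes, 6 of the 9 were lower in both triple-mutant tumors and 1, Krt19, was higher, against 22.9% and 21.3% of all genes tested. The differences were -2.37 for Elf5, -2.24 for Cldn7 and 2.40 for Krt19.

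Pericytes and vascular smooth muscle also express Acta2, Tagln, Myl9 and Cnn1. Of their 11 markers 10 were tested. In 8 of these tumor 26044 was above tumor 26043, as in 4933 of the 12752 genes tested. The difference was 1.94 log2 units at most, with a median of 0.62. The pericyte gene Rgs5 had 7.48 and 29.6 FPKM in triple-mutant and 9.85 and 5.28 FPKM in double-mutant tumors. All 5 tested endothelial markers were higher in tumor 26044 as well, by 1.03 to 1.85 log2 units, among them Cdh5 with 7.22 and 28.7 FPKM against 13.2 and 7.36 FPKM in double-mutant tumors. Rgs5 and Cdh5 were named after their values were seen. Acta2, Tagln, Myl9 and Cnn1, grouped after their values were seen, differed by 3.47 to 3.77 log2 units within this pair. Tpm2, Mylk, Oxtr, Smtn and Actg2 differed by 1.75, 1.15, 0.66, 0.43 and -1.35. The tested markers of pericytes and vascular smooth muscle ran from -1.51 to 1.94. The part of these cells in the levels of the members was not tested. Summed over the list, the markers of pericytes and vascular smooth muscle stood at 103 and 234 FPKM in triple-mutant and 109 and 67.1 FPKM in double-mutant tumors. Between genotypes the largest differences in this list were 1.67 for Notch3, 1.66 for Higd1b and -1.02 for Des, and the medians of the mural and endothelial lists were 0.55 and 0.43. Of the defining genes, Myocd was near 0 in tumor 26044, Myh11 was highest there at 1.87 FPKM, 3.79 times its level in tumor 26043, and Des was at 2.49 and 3.75 FPKM in triple-mutant and 6.85 and 7.71 FPKM in double-mutant tumors.

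Fibroblasts and myofibroblasts were represented by 10 markers, of which 9 were tested, 8 of them lower in tumor 26044 than in tumor 26043. Of the 12752 genes tested, only 4933 were higher in tumor 26044 than in tumor 26043. The exception, named after its values were seen, was Pdgfra, at 2.90 and 19.1 FPKM in triple-mutant and 1.63 and 1.44 FPKM in double-mutant tumors. Between genotypes 5 of the 9 were lower in both triple-mutant tumors, against 22.9% of all genes tested. The largest of these differences were Dpt at -2.90, Col3a1 at -2.50 and Col1a1 at -2.41. The summed level was 314 and 166 FPKM in triple-mutant and 1138 and 499 FPKM in double-mutant tumors, lowest in the tumor with the highest Acta2. Of the remaining lists, leukocyte markers summed to 41.1 to 45.3 FPKM in triple-mutant and 73.0 to 77.2 FPKM in double-mutant tumors. Adipocyte markers summed to 1390 FPKM in double-mutant tumor 26048 and 7.58 to 261 FPKM in the other tumors, and Adipoq, Plin1 and Lep were listed at 0 in tumor 26044. The myosin light chain Myl1 was the only skeletal muscle marker tested whose genotypes did not overlap, at -1.99.

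**Figure D4:**
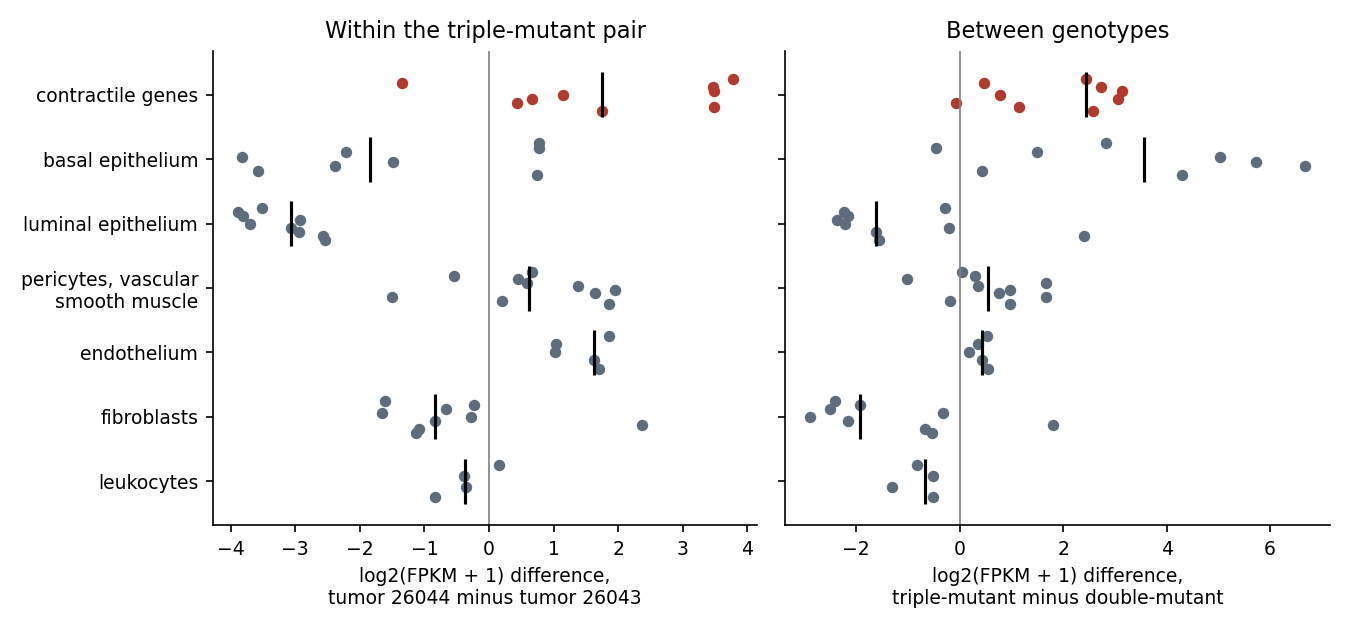
log2(FPKM + 1) difference of each tested gene (points, 1 row for each marker list, contractile genes in red) of tumor 26044 minus tumor 26043 on the left and of triple-mutant minus double-mutant tumors on the right, with the median of each list as a black line. On the left the contractile genes reach 3.77, endothelial markers lie between 1.03 and 1.85 and luminal markers have a median of -3.06. On the right the medians of contractile and basal genes are 2.45 and 3.56.

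The genes whose profile over the 4 tumors lay closest to the mean profile of the tested members, by Euclidean distance of centred log2(FPKM + 1), were Ank3, Ang, Mmp11, Gpx7 and Olfml2a, at distances of 0.18 to 0.20. With 4 tumors this is a description only. Ank3, which encodes a protein that links membranes to the cytoskeleton, had 10.3 and 46.3 FPKM in triple-mutant and 8.08 and 3.97 FPKM in double-mutant tumors. The secreted protease gene Mmp11 had 6.44 and 23.0 against 3.74 and 1.67 FPKM, so that in both genes tumor 26044 was the highest and tumor 26050 the lowest, as in most members.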

How the data were processed

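PolyA RNA of 4 mammary tumors was analysed. The authors sequenced 50-bp single-end reads from strand-marked libraries, aligned them with TopHat2 2.0.10 and Bowtie 0.12.9 to mm10, and deposited gene-level FPKM from Cufflinks 2.1.1 with an interval in the same unit, 1 table per tumor. The counts that the study tested with DESeq2 were not used here. The 4 tables were joined on symbol and position. Starts in the tables count from 0, so 1 was added, and all 10 members overlapped the gene of the same name in GENCODE on GRCm38. Genes that reached 1 FPKM in 2 tumors or more were fitted as log2(FPKM + 1) with limma 3.58.1 (R 4.3.3, eBayes with its trend option). Differences are triple-mutant minus double-mutant, and p-values were adjusted over all genes tested by Benjamini-Hochberg, with a threshold of 0.05. The fit was tested on simulated data with known changes, in which every gene was given the median spread. How well it finds changes in genes that vary more between tumors was not tested. Python 3.11.15 and matplotlib 3.10.9 were used for counts and figures. The members, gene lists and tests were chosen with earlier results of these data known. Named are all members, Tnfrsf11a, in each other list up to 3 tested genes with the largest difference without overlap, defining markers near 0 and the 5 nearest profiles. Of the genes named by this rule, 1 is not reported here. Other genes are marked as named after their values were seen, except Epcam, Krt8, Actb, Tagln2 and the other abundant relatives, which are given as checks of tissue and family. A summed or median value of a list is a description without a test.

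Alternatives were TPM, a filter of 5 FPKM, no filter, a pseudocount of 0.1, quantile normalization, no trend, interval midpoints, genes of status OK, and each tumor left out. Leaving out a tumor leaves 1 sample in its genotype, which is then assumed to vary like the other pair.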

Additional observations from a re-analysis of the deposited data

How the results depend on the processing

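The number of members past the adjusted threshold was 0 under every alternative. Over all genes limma gave 0 in the main analysis, 6 with quantile normalization, 5 without the trend and 1 with interval midpoints, and the causes were not tested. All 9 tested members kept their direction with a pseudocount of 0.1, no filter, TPM, quantile normalization, no trend, interval midpoints and genes of status OK. So did the 7 members left by the filter of 5 FPKM, which dropped Cnn1 and Mylk. With 1 tumor left out in turn, the median log2 difference of the members ran from 0.99 to 3.39, that of Tagln from -0.60 to 2.88, that of Actg2 from -0.21 to 1.14 and that of Smtn from -0.43 to 0.28. The adjusted p of Oxtr ranged from 0.11 to 0.97 over all alternatives. No paired analysis was possible because the labels share no replicate number between genotypes. With 2 tumors per genotype and read depth unknown, differences of the size seen within a pair cannot be resolved.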
